A study of Mus musculus with 6 samples.

Results

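The genes described here are named for proteins of the cytosolic ribosome, and some are paralogs of such genes. They were taken from the table by name and class: the biotype had to be protein_coding and the symbol had to be Rpl, Rps or Rplp followed by a number and at most a short suffix, or Rpsa. Of the 30315 genes listed, 82 met the rule, 50 named for the large subunit and 32 for the small subunit. Another 4 symbols with the same form were listed as pseudogenes and were not counted as members. Mouse (C57BL/6) primary renal tubular epithelial cells (TECs) were transfected with an siRNA against Sox9 (siSox9, n = 3) or with a control siRNA (siNC, n = 3), 12 h before injury. Both groups then went through hypoxia/reoxygenation (H/R), with 6 h at 1.0% oxygen in medium without glucose followed by 18 h under normal conditions. There was no group without H/R, so all values describe injured cells. The sources used here do not say whether the 3 replicates of a group came from separate mice or cultures, and p-values measure only the spread between these libraries.

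A ribosome consists of a large and a small subunit, each built from ribosomal RNA and one copy of most ribosomal proteins. Rplp1 and Rplp2 are the exception, since they form dimers on the stalk of the large subunit that recruits translation factors. Most of these mRNAs begin with a 5' terminal oligopyrimidine (TOP) tract, a C followed by a run of C and T, through which mTOR and the RNA-binding protein LARP1 regulate their translation and stability. In kidney tubules, repair after injury involves division of surviving epithelial cells, which requires new ribosomes.

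Values are FPKM, fragments scaled to exon length and library size. Whole reads were recovered from them with annotated exon lengths for most genes. The FPKM scaling implied totals of 23893197 to 25725743 reads per library. Knockdown was seen in every library: Sox9 had 8.93, 8.61 and 9.07 FPKM with siSox9 against 25.7, 26.5 and 25.6 FPKM with siNC, 34.2% of control. Markers of epithelium were high (Krt8 had a mean of 2106 FPKM), whereas 4 of 5 measured markers of the proximal tubule were under 1 FPKM, Slc34a1 and Slc5a2 among them. Macrophage markers were present at low levels, with summed values of 103 to 114 FPKM in siSox9 and 92.2 to 98.7 FPKM in siNC libraries, mostly from Lyz2. Endothelial markers were scarce, with 3 of 4 under 1 FPKM, and their sum was lower in every siSox9 library (2.76 to 2.99 FPKM) than in any control (3.15 to 4.01 FPKM). Fibroblast markers, 4 of 5 of them under 1 FPKM, summed to 6.24 to 7.76 FPKM with siSox9 and 7.72 to 8.79 FPKM with siNC. The part of these cell types in the results below was not tested. The control library siNC replicate 1 stood apart from the other controls in the genes described here, and results are therefore given with and without it.

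The TOP tract was looked for at the annotated transcript starts of the members. Start windows from RefSeq (GRCm38.p6) were matched by symbol for 62 of 82 members, including all 15 that were called below. A gene with several annotated starts was counted, here and below, if any of them had the feature. A run of at least 5 pyrimidines beginning with C lay exactly at an annotated start in 13 of these 62 members, compared with 813 (3.01%) of 27025 genes with a start window. Within 20 bases of the start on either side, such a run began in 50 of 62 members (80.6%), against 53.3% of the 27025 genes. The 40 bases around the start are shown for the 7 called members with a run exactly at the start, in capitals. They are also shown for 3 members with strong calls and no run at the annotated base. For each gene the start with the longest run was taken. Each window holds 20 bases before the start and the first 20 bases of the transcript.
Rps6 (chr4:86857348-86857387, minus strand): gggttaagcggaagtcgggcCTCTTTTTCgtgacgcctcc
Rpl28 (chr7:4792945-4792984, plus strand): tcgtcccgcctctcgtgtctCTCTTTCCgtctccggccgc
Rps27 (chr3:90213629-90213668, minus strand): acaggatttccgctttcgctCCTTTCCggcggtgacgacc
Rpl14 (chr9:120571497-120571536, plus strand): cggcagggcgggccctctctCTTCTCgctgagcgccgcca
Rpl15 (chr14:18270967-18271006, minus strand): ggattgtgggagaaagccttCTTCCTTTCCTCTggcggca
Rps10 (chr17:27635225-27635264, minus strand): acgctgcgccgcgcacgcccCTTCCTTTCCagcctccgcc
Rps18 (chr17:33955646-33955685, minus strand): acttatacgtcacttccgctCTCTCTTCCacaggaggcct
Rpl31 (chr1:39367831-39367870, plus strand): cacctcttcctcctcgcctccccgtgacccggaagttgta
Rpl41 (chr10:128549149-128549188, minus strand): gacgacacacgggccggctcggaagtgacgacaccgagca
Rps19 (chr7:24884572-24884611, plus strand): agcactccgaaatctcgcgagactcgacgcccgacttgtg
The capitals begin at the annotated first base of the transcript in the first 7 windows. Annotated starts can be a few bases away from the start used in the cells, so a window without capitals says nothing about the mRNA made in these TECs. Of the 13 members with a run at the start, 7 were called lower with siSox9 and the median log2 fold change was -0.16, where 17.6% of all genes tested were called lower. Among 46 tested members with a window and no such run, 8 were called and the median was -0.12. The binding core of ETS-type factors, CCGGAAG on either strand, was present in 25 of 62 member promoters (40.3%; 250 bases before to 50 after the start), against 9.93% of all genes and 21.4% of the genes tested. Of the tested members with a window, 8 of 25 with this core and 7 of 34 without it were called lower, and the medians were -0.12 and -0.13, respectively. These are descriptions with no test.

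A minority of ribosomal protein mRNAs, near the share of all genes, was called lower after Sox9 knockdown, by small amounts. None was called higher. Of 79 members with a mean of at least 1 FPKM, 15 were called lower (19.0%) and 0 were called higher by limma on log2(FPKM + 1) with Benjamini-Hochberg adjusted p under 0.05. Over all 12009 genes tested, 17.6% were called lower and 12.8% higher, so the share of members called lower was near the background. No member was higher at an unadjusted limma p under 0.05 either, against 2218 of the 12009 genes tested. At that level 29 of 79 members were lower, against 2833 of the 12009 genes. The median log2 fold change of the members was -0.12, against -0.01 over all genes tested, and 70 of 79 members (88.6%) lay below 0, against 53.6% of all genes. The calls came from both subunits, with 9 of 47 large-subunit genes (median -0.12) and 6 of 32 small-subunit genes (median -0.12). All 15 called members had siSox9 values entirely below the siNC values. Complete separation in the lower direction was seen in 20 of 79 members (25.3%) and in 26.1% of all genes. In the higher direction it was seen in 0 members and in 20.2% of all genes.

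Rpl31, a large-subunit protein beside the exit of the peptide tunnel, had the largest decrease. Its gene lies on chromosome 1 from 39367842 to 39371911 (GRCm38, plus strand). Rpl31 had 114, 116 and 118 FPKM in the siSox9 libraries and 145, 174 and 159 FPKM in the siNC libraries, from 4690 to 6972 reads per library. The groups were far apart, and Rpl31 stood at 72.8% of control (log2 fold change -0.45, SE 0.06, limma adjusted p = 0.0022). Rpl41, which encodes one of the smallest known proteins, had 311, 289 and 300.4 FPKM with siSox9 and 341, 362 and 350.2 FPKM with siNC. All siSox9 values of Rpl41 lay under all controls, with a log2 fold change of -0.23 (SE 0.04, limma adjusted p = 0.0052). Rpl28, another large-subunit gene, had 171, 168 and 172 FPKM with siSox9 and 191, 202 and 190.3 FPKM with siNC. The Rpl28 controls were close to each other, siNC replicate 1 included, and the log2 fold change was -0.19 (SE 0.03, limma adjusted p = 0.0056). Rpl31, Rpl41 and Rpl28 were the 3 members called lower under all 16 alternative analyses.

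Rps19, which is needed for maturation of the small subunit and is mutated in Diamond-Blackfan anaemia, had 36.1, 36.2 and 38.0 FPKM with siSox9. The siNC libraries had 40.8, 47.7 and 47.0 FPKM of Rps19, with siNC replicate 1 the lowest control. Rps19 reached 81.3% of control (log2 fold change -0.29, SE 0.06, limma adjusted p = 0.012) and lost its call in 1 of 16 alternatives, the linear model without moderation. Rpl14 had 152, 150.4 and 162 FPKM with siSox9 and 170.4, 204 and 194 FPKM with siNC. Its log2 fold change was -0.29 (SE 0.07, limma adjusted p = 0.018). Rps27, a zinc-finger protein of the small subunit, had 53.1, 53.2 and 56.6 FPKM with siSox9 and 60.0, 72.7 and 66.2 FPKM with siNC. Groups were separate for both genes, but in each the gap between siSox9 replicate 3 and siNC replicate 1 was small. Rps27 had a log2 fold change of -0.28 (SE 0.07, limma adjusted p = 0.019). Rpl14 and Rps27 lost their calls without siSox9 replicate 1, without siSox9 replicate 2 or without siNC replicate 3, and their log2 fold changes over all alternatives were -0.36 to -0.23 and -0.35 to -0.21.

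**Figure D1:**
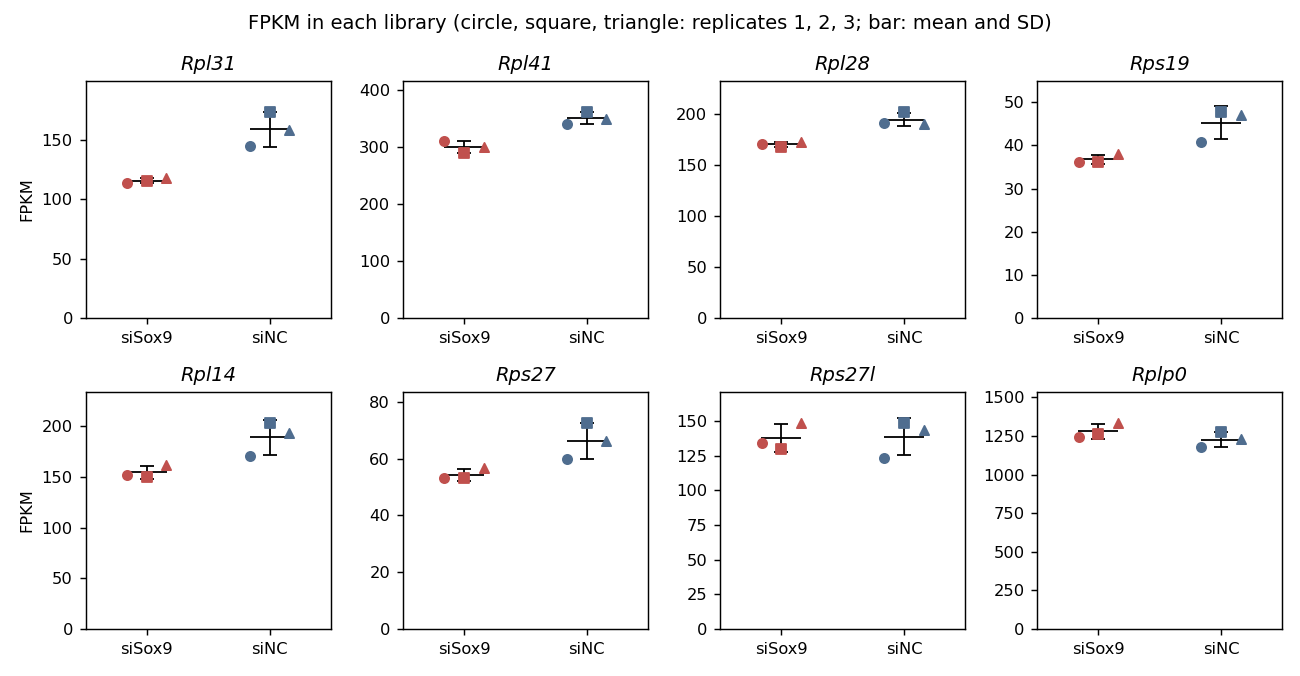
FPKM (y axes, from 0) of 8 ribosomal protein genes in the 3 siSox9 and 3 siNC libraries; each point is a library, its shape gives the replicate number, and bars give mean and SD. The groups do not overlap for Rpl31, Rpl41, Rpl28, Rps19, Rpl14 and Rps27, and they overlap for Rps27l and Rplp0.

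Smaller decreases completed the set of 15. Rpl34 (log2 fold change -0.22) and Rpl15 (-0.20) were the remaining members among the 8 largest calls. Rps6, the small-subunit protein phosphorylated by S6 kinase downstream of mTOR, had 409, 423 and 442 FPKM with siSox9 and 456, 497 and 485 FPKM with siNC. That is 88.6% of control, and the groups did not overlap (log2 fold change -0.17, SE 0.05, limma adjusted p = 0.025). Rps2, Rpl13, Rps18, Rps10 and Rpl10a, which were singled out after their values were seen, had log2 fold changes of -0.19, -0.17, -0.15, -0.15 and -0.14. Each of these 8 genes lost its call without siSox9 replicate 1 or without siSox9 replicate 2, and each but Rpl13 also without siNC replicate 2 or without siNC replicate 3. Their log2 fold changes over all alternatives lay between -0.29 and -0.11. Among the members just outside the threshold, Rpl37 had 178, 180 and 177 FPKM with siSox9 and 185, 225 and 209 FPKM with siNC (limma adjusted p = 0.053). For the 64 members not called, log2 fold changes ran from -0.21 to 0.10 and the outermost 95% limits were -0.47 and 0.29.

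**Figure D2:**
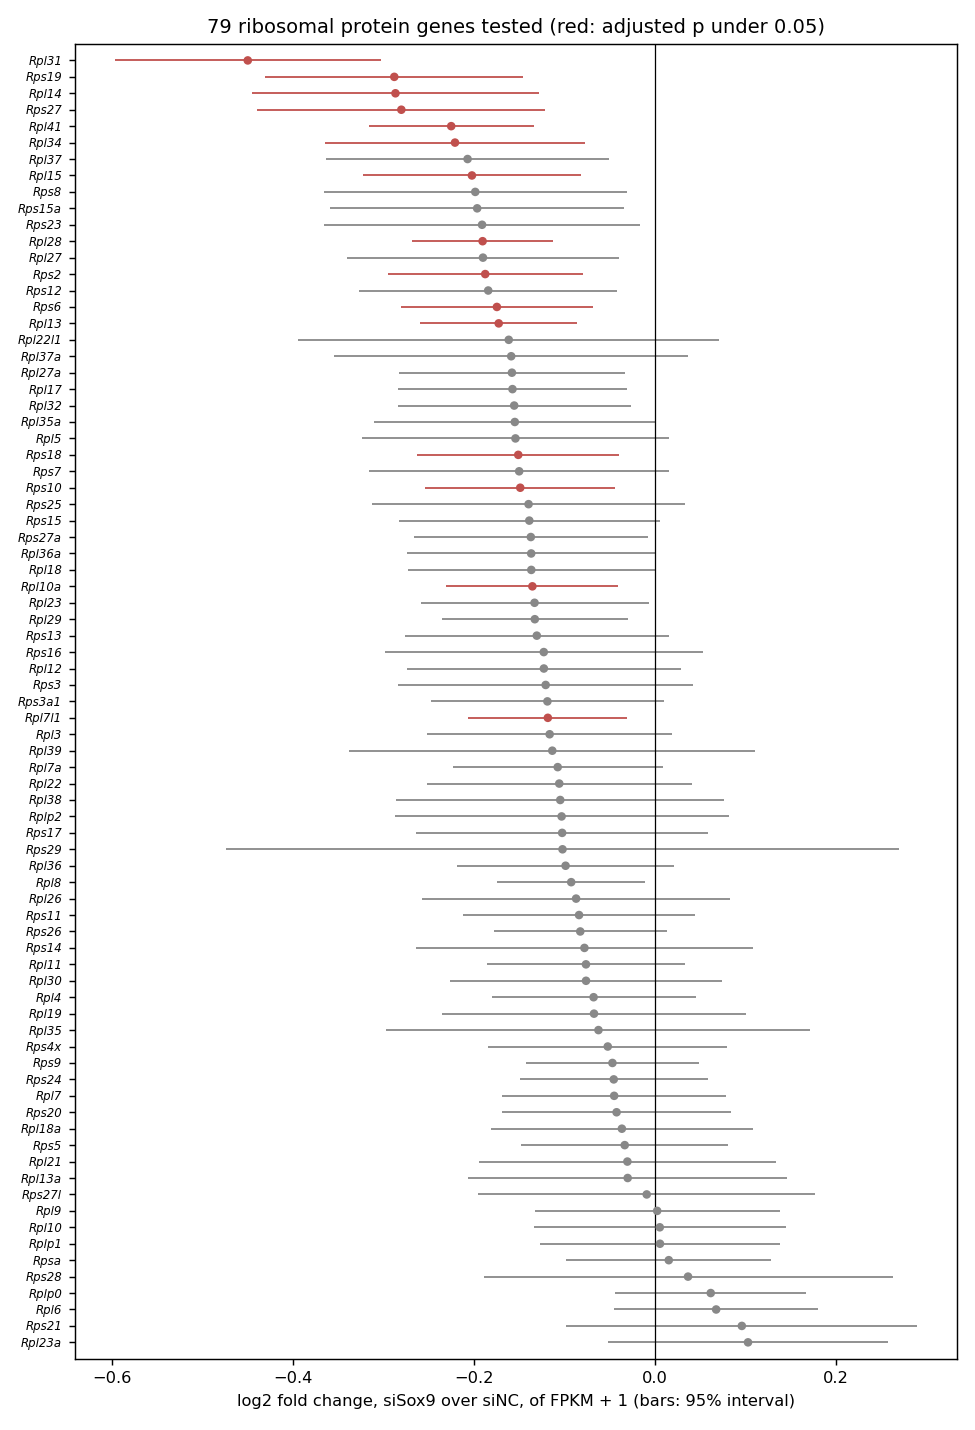
Log2 fold change of FPKM + 1 (x axis) with its 95% interval for the 79 ribosomal protein genes tested, 1 gene per row. The 15 red genes passed the adjusted p threshold, all with values under 0, and 70 of 79 points lie left of the zero line.

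The proteins of the stalk showed no call. Rplp0, which anchors the stalk, was the member with the highest mean at 1253 FPKM, and had 1243, 1261 and 1336 FPKM with siSox9 and 1176, 1276 and 1227 FPKM with siNC (log2 fold change 0.06, 95% interval -0.04 to 0.17). Rplp1 followed with a mean of 1026 FPKM, and its log2 fold change was 0.01 (95% interval -0.13 to 0.14). Next stood Rpl8, with 721, 742 and 765 FPKM with siSox9 and 775, 801 and 799 FPKM with siNC. The Rpl8 groups did not overlap, yet the gene was not called (limma adjusted p = 0.084). Rplp2 and Rpl12, the protein at the base of the stalk, had log2 fold changes of -0.10 and -0.12 with intervals that included 0. Of Rplp0, Rplp1, Rplp2 and Rpl12, none had a limma p under 0.05 before adjustment or a call by voom, while Rplp2 was called lower without siNC replicate 1. Rpl5 and Rpl11 carry 5S ribosomal RNA into the large subunit and, when free, bind Mdm2. Their log2 fold changes were -0.15 (95% interval -0.32 to 0.01) and -0.08 (95% interval -0.19 to 0.03). Both were among the members called lower when siNC replicate 1 was left out. Rpsa, which also serves as a laminin receptor, had overlapping groups and a log2 fold change of 0.02 (95% interval -0.10 to 0.13). Rps27a, made as a fusion with ubiquitin, had a log2 fold change of -0.14 (limma adjusted p = 0.10).

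Rack1 and Fau belong to the ribosome but lie outside the name pattern, and both had means below control. Rack1, a scaffold on the head of the small subunit, was called lower with 190, 187 and 196 FPKM against 199, 220 and 211 FPKM (log2 fold change -0.14, SE 0.04, limma adjusted p = 0.048). The call was lost in 11 of 16 alternatives, among them each analysis that left out 1 library other than siNC replicate 1. Fau, a ubiquitin-like protein fused to Rps30, had 267, 261 and 276 FPKM with siSox9 and 277, 317 and 307 FPKM with siNC (limma adjusted p = 0.059).

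Paralogs of ribosomal proteins were compared with their partners within each library. Of 8 pairs considered, Rpl10l and Rpl39l were not among the genes analysed here, and Rpl3l and Rpl36al were under 1 FPKM. For the remaining 4 pairs the log2 ratio of FPKM + 1 was tested with an exact 2-sided permutation test, whose smallest possible p with 3 libraries against 3 is 0.1. Rps27l, a p53 target, had 134, 130 and 149 FPKM with siSox9 and 124, 149 and 144 FPKM with siNC, with overlapping groups and a log2 fold change of -0.01 (SE 0.08). Rps27, in contrast, was called lower, and the log2 ratio of Rps27l to Rps27 was 1.32, 1.27 and 1.38 with siSox9 and 1.03, 1.02 and 1.11 with siNC. The ratio was thus higher in all 3 siSox9 libraries than in any control, by 0.27 (exact p = 0.1, adjusted p = 0.2 over 4 pairs). This difference did not rest on siNC replicate 1, whose ratio was between those of the other controls. Rps4l, listed as a transcribed processed pseudogene and therefore no member, was called lower (27.2, 28.0 and 30.1 FPKM against 32.5, 34.1 and 31.0 FPKM) whereas Rps4x had a log2 fold change of -0.05 (95% interval -0.18 to 0.08). The call of Rps4l held in 7 of 16 alternatives and was lost, among others, with the replicate block, with TPM, and without siSox9 replicate 1, siSox9 replicate 2 or siNC replicate 2, with log2 fold changes of -0.23 to -0.12 over all alternatives. The log2 ratio of Rps4l to Rps4x differed by -0.14 with the same exact p of 0.1. Rpl7l1 was called lower at the edge of the threshold (log2 fold change -0.12, limma adjusted p = 0.0498) and in 4 of the 15 alternatives that tested it, and Rpl7 had a log2 fold change of -0.05. Rpl22l1 was scarce at 2.81 to 4.25 FPKM, and the ratios of Rpl7l1 to Rpl7 and of Rpl22l1 to Rpl22 overlapped between groups (exact p = 0.2 and 0.8). The partners of the paralogs not tested were Rpl3, Rpl10, Rpl36a and Rpl39. Their log2 fold changes were -0.12, 0.01, -0.14 and -0.11, and none was called.

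Levels of the members differed far more between genes than between groups. Exon models of these genes are long compared with the main transcript, which was picked from the annotation for each gene. Which transcript these cells mostly made was not measured. The median union of exons was 1775 bases and the median main transcript 680 bases. Deposited FPKM values understate the mRNA level where the main transcript is the one mostly made. Scaled to the length of the main transcript, the members had a median of 400.0 FPKM, with a range from the 10th to the 90th percentile of 85.5 to 826 FPKM. Rplp0 (1531 FPKM), Rps2 (1366 FPKM) and Rpl8 (1225 FPKM) were at the top of this scale. At the bottom, Rpl24 had deposited values of 0.0765 to 0.281 FPKM, Rpl36al 0.149 to 0.551 FPKM, and Rpl3l, a form known from striated muscle, at most 0.0735 FPKM with 2 siNC libraries listed at 0. Rpl24 and Rpl36al encode proteins of the common ribosome, and their exons are overlapped on the same strand by other annotated genes over 47.0% and 24.5% of their length. Their main transcripts share 69.4% and 59.5% of 50-base stretches with Gm28037 and Gm49383, respectively. Rpl13a, with a main-transcript level of 7.62 FPKM, had 35.4% of its exons overlapped and 57.4% of its 50-base stretches shared with Gm45713. Recovered reads of Rpl24, Rpl36al and Rpl13a came out as whole numbers in all 6 libraries (2 to 7, 5 to 18 and 175 to 216 reads). How the counting treated shared reads was not tested, and levels of these genes are uncertain.

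Shared sequence touches most members. A median of 61.4% of the 50-base stretches of the main transcript also occur in another gene, and the share was above 50% in 54 of 82 members. Among the 15 called members, 14 had at least 1 listed gene of 1 FPKM or more that shares 40% or more of these stretches, 26 such genes in all. Of those 26, 3 were called lower and 0 higher, where 17.6% of all genes tested were called lower and 12.8% higher. Rpl31-ps8, which shares 75.1% of the stretches of Rpl31, had 46.3, 49.6 and 49.2 FPKM with siSox9 and 68.3, 75.6 and 74.7 FPKM with siNC. It was called lower in all alternatives (log2 fold change -0.58, SE 0.05, limma adjusted p = 0.00028). Its controls were also tighter, siNC replicate 1 lying at 68.3 FPKM. Rpl14-ps1 had 230.1, 236 and 257 FPKM with siSox9 and 276, 316 and 285 FPKM with siNC, a log2 fold change of -0.28 (limma adjusted p = 0.014). Rps10-ps2 was called as well, with a log2 fold change of -0.20 (limma adjusted p = 0.025). Both pseudogenes lost the call when siSox9 replicate 1 or siSox9 replicate 2 was left out, and Rps10-ps2 also without siSox9 replicate 3, siNC replicate 2 or siNC replicate 3, with log2 fold changes between -0.32 and -0.21 for Rpl14-ps1 and between -0.25 and -0.15 for Rps10-ps2 over all alternatives. Rps27rt shares 98.6% of the stretches of Rps27 and had 39.5, 31.8 and 38.8 FPKM with siSox9 and 43.9, 47.3 and 38.6 FPKM with siNC. These values overlapped and Rps27rt was not called. How reads shared by a member and its copies were counted is not given in the sources used here. Values of members that share much sequence are therefore uncertain, which among the called members touches Rps27, Rps10, Rpl10a (88.1% of stretches shared), Rps18 (86.7%), Rps6 (84.6%) and Rpl13 (80.3%) the most.

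The number of members called moved with the control libraries. For each gene the deviation of a library from the mean of all 6 was taken on the log2 scale, and the median over the 79 members was -0.09, -0.09 and -0.01 in siSox9 replicates 1 to 3. The siNC libraries had medians of -0.05, 0.15 and 0.08. Thus siNC replicate 1 lay among the siSox9 libraries, and siNC replicate 2 was the highest library for 68 of 79 members. In 75 of 79 members siNC replicate 1 was the lowest control, and in 58 of 79 it was at or under the highest siSox9 library. The other controls were both above every siSox9 library in 61 of 79 members. The median SD of a member was 0.05 among siSox9 and 0.11 among siNC libraries, compared with 0.04 and 0.05 for other genes of at least 50 FPKM.

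**Figure D3:**
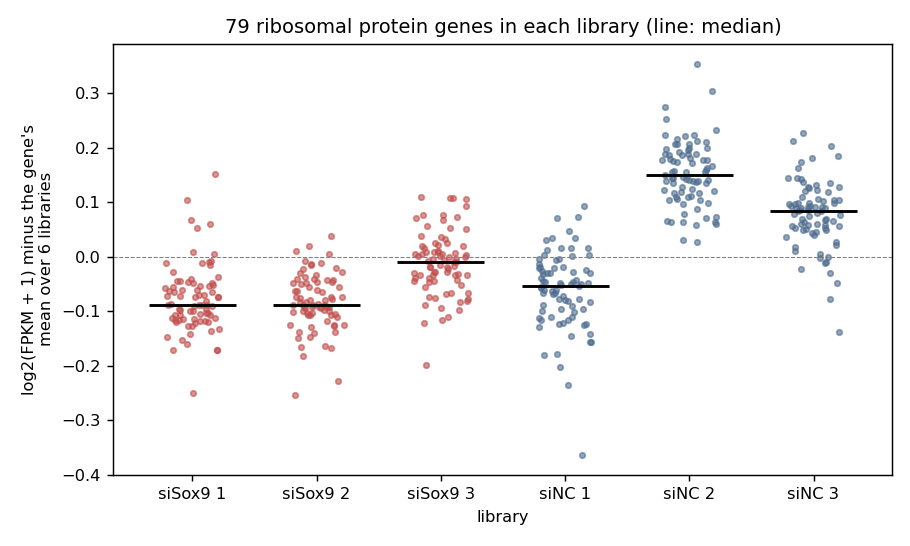
Deviation of log2(FPKM + 1) from the mean of each gene over 6 libraries (y axis) for the 79 ribosomal protein genes tested in each library (x axis); lines are medians. The median of siNC replicate 1 (-0.05) lies between those of siSox9 replicates 1 and 3, while siNC replicates 2 and 3 lie at 0.15 and 0.08.

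Without siNC replicate 1, 50 of 79 members were called lower and 0 higher, with 17.4% of all genes called lower in that analysis. All 15 members called with 6 libraries were among the 50, and the median log2 fold change was -0.19, compared with -0.07 without siNC replicate 2. Leaving out siNC replicate 2 or siNC replicate 3 gave 7 calls (8.86%, against 14.1% of all genes) and 5 calls (6.33%, against 13.0%). Without siSox9 replicate 1 or siSox9 replicate 2 there were 4 calls each (5.06%, against 13.1% and 12.3% of all genes), and without siSox9 replicate 3 there were 12 (15.2%, against 13.7%). With no filter on low values, 4 of 82 members were called lower (4.88%, against 5.63% of all genes). A test on recovered reads (limma voom), which covered 68 members, called 28 lower and 0 higher, with 20.8% of all genes called lower. The number of members called lower thus ranged widely with the libraries used, while the direction did not. The median was below 0 in each of the 16 alternatives, and no alternative called a member higher. As a share of all listed FPKM, the 82 members made up 5.96%, 5.94% and 6.14% in siSox9 and 6.19%, 6.60% and 6.17% in siNC libraries. The means were 6.01% ± 0.11 (SD, n = 3) and 6.32% ± 0.243 (SD, n = 3) and the groups did not overlap, although siSox9 replicate 3 was close to siNC replicates 1 and 3. The difference of -0.308 percentage points was -0.169 without siNC replicate 2 and -0.474 when Gm23935 was left out of the total. Total FPKM itself varied, and the small RNA gene Gm23935 took 0.96%, 0.935% and 1.27% of it in siSox9 replicates 1 to 3. In siNC replicates 1 to 3 this gene took 0.266%, 3.72% and 6.35%. Its part in the library pattern of the members was not tested.

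Short genes as a class were low in siNC replicate 1, which bears on genes that encode small proteins. Among other protein-coding genes with up to 500 bases of exon, the median log2 difference between siNC replicate 1 and the mean of the other controls was -0.16. It was -0.12 from 501 to 1000 bases, -0.05 from 1001 to 2000 bases and 0.00 from 2001 to 4000 bases. By this measure the members did not follow the slope. Their medians in the same classes were -0.16, -0.19, -0.18 and -0.17. The 6 members over 4000 bases had -0.18 where other genes had 0.03. These classes and the bins below use the union of exons. In members it is far longer than the main transcript (medians 1775 and 680 bases). Rps24, for example, has 6256 bases of exon and a main transcript of 468 bases. Members were thus not compared with other genes of like transcript length, and the part of transcript length was not tested. By exon length, the fold change between siSox9 and siNC hardly varied among other genes, with medians from -0.02 to 0.02. After centring within bins of exon length, 11 of 79 members (13.9%) were called lower, under the 15.5% of all genes called lower in that analysis.

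**Figure D4:**
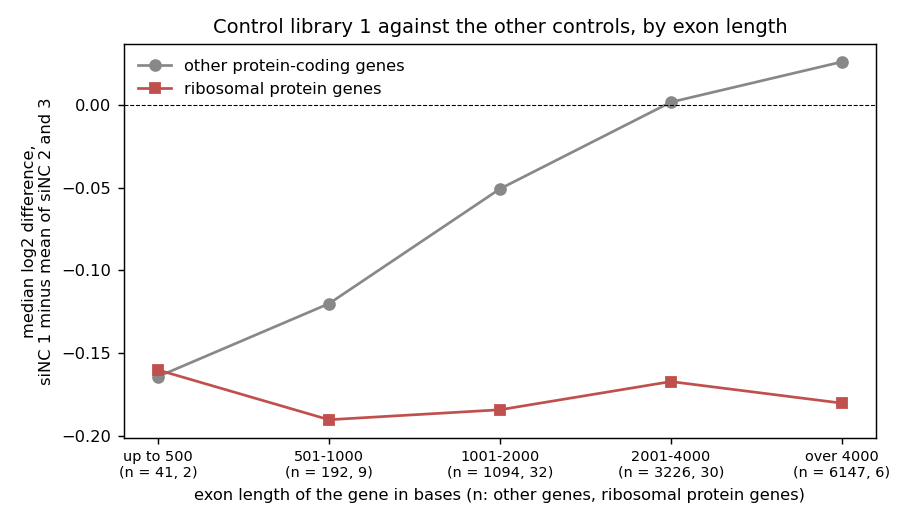
Median log2 difference between siNC replicate 1 and the mean of siNC replicates 2 and 3 (y axis) by exon length of the gene in bases (x axis), for ribosomal protein genes and other protein-coding genes; the numbers of genes stand under each class. Other genes rise from -0.16 to 0.03 with length, and ribosomal protein genes stay between -0.19 and -0.16.

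The proteins of the mitochondrial ribosome are encoded by separate nuclear genes. Of 77 tested, 11 were called higher (14.3%, against 12.8% of all genes) and 4 lower (5.19%, against 17.6%), and the median log2 fold change was 0.04. Over the alternatives the counts were 4 to 14 and 2 to 6, with 4 higher without siSox9 replicate 2 or 3, 6 higher without siNC replicate 2 and 2 lower without siNC replicate 3. Mrpl57 was called higher (log2 fold change 0.23, limma adjusted p = 0.012), as was Mrpl36 (0.25, limma adjusted p = 0.045), although Mrpl36 lost its call in 8 of 16 alternatives, including those without siSox9 replicate 2 or 3 or without any 1 of the siNC libraries, when its log2 fold change was between 0.18 and 0.32. Mrpl13 was called lower with 2.46, 2.30 and 2.75 FPKM against 4.29, 4.86 and 4.49 FPKM (log2 fold change -0.66, SE 0.06), and so was Mrpl11 (-0.31). Median deviations of these genes by library were 0.02 and -0.01 in siNC replicates 2 and 3, without the high values that the cytosolic ribosomal protein genes had there, and -0.07 in siNC replicate 1. Whether the cytosolic and mitochondrial genes differ as groups was not tested.

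The genes called among those for building ribosomes were called higher. Of 71 tested genes for ribosome biogenesis (RNA polymerase I subunits, processing factors and assembly factors), 16 were called higher (22.5%, against 12.8% of all genes) and 0 lower (against 17.6% of all genes) by limma, and 3 were lower at an unadjusted p under 0.05. Across the alternatives 10 to 25 were called higher and 0 to 2 lower, with the fewest calls (10) without siSox9 replicate 2 or without siNC replicate 3. Bysl, a small-subunit processing factor, had 16.2, 15.4 and 15.6 FPKM with siSox9 and 12.6, 13.3 and 12.5 FPKM with siNC (log2 fold change 0.28, SE 0.04, limma adjusted p = 0.0022). Bop1, which acts in processing of large-subunit ribosomal RNA, had 44.7, 45.2 and 46.7 FPKM against 38.3, 36.8 and 37.8 FPKM (log2 fold change 0.27, SE 0.03, limma adjusted p = 0.0011). Groups of both genes were far apart. Of 9 tested dedicated chaperones of ribosomal proteins, none was called by limma, where 12.8% of all genes were called higher and 17.6% lower. At an unadjusted limma p under 0.05, 1 was higher and 0 lower, and none was called by voom. The alternatives called 0 to 1 chaperone higher and 0 lower. Myc, a transcription factor known to drive ribosome genes, had 63.7, 61.5 and 60.9 FPKM with siSox9 and 60.2, 55.8 and 59.4 FPKM with siNC. The Myc groups did not overlap, but the gene was not called (log2 fold change 0.08, SE 0.04, limma adjusted p = 0.14).

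Translation factors, some of which are also TOP mRNAs, were mostly not called. Of 32 initiation factors, 5 were called higher (15.6%, against 12.8% of all genes) and 3 lower (9.38%, against 17.6%), with ranges of 1 to 6 and 1 to 5 over the alternatives. Without siSox9 replicate 2, 1 was called higher and 1 lower, while 1 was higher without siNC replicate 3 and 1 was lower without siNC replicate 2. Eif4b, which assists the helicase Eif4a1, was called higher (log2 fold change 0.17, SE 0.03, limma adjusted p = 0.0039), and Eif4a1 had 0.16 (limma adjusted p = 0.025). Eif4g2 (-0.15) and Pabpc4, a poly(A)-binding protein (-0.22), were called lower. Eif4a1 and Pabpc4 lost their calls without siSox9 replicate 2, without siSox9 replicate 3 or without siNC replicate 3, and Pabpc4 also without siNC replicate 2. Over all alternatives the log2 fold change was 0.12 to 0.19 for Eif4a1 and -0.29 to -0.19 for Pabpc4. Of 16 elongation and termination factors, 1 was called higher (6.25%, against 12.8% of all genes) and 0 lower (against 17.6%) by limma. At an unadjusted limma p under 0.05, 1 was lower, and 0 were called lower by voom. The alternatives called 1 to 2 of these factors higher and 0 to 1 lower, with 0 to 1 lower on leaving out a library. The called gene was Etf1, the release factor (log2 fold change 0.24, SE 0.03, limma adjusted p = 0.0015).

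Some regulators of TOP mRNAs had larger fold changes than any ribosomal protein gene. Of 29 tested genes of the mTOR and LARP1 pathway, 4 were called higher and 3 lower, shares of 13.8% and 10.3% that lay near or under the background. Eif4ebp2, a repressor of the cap-binding protein eIF4E that mTOR inactivates, had 19.5, 18.6 and 18.6 FPKM with siSox9 and 30.4, 30.1 and 31.2 FPKM with siNC (log2 fold change -0.67, SE 0.03, limma adjusted p = 5.9e-05). Sesn3, a sestrin that restrains mTOR complex 1, was called lower (log2 fold change -0.34, SE 0.04, limma adjusted p = 0.0012). Lamtor1, which anchors the Ragulator complex on the lysosome where mTOR complex 1 is activated, had a mean of 21.3 FPKM (SD 0.50, n = 3) against 14.9 FPKM (SD 0.024, n = 3), with groups far apart (log2 fold change 0.49, SE 0.03, limma adjusted p = 0.0001). Rragd, a Rag GTPase of the same machinery, was also called higher (log2 fold change 0.34, SE 0.05, limma adjusted p = 0.0032). Each of these 4 genes was called in every alternative in which it was tested. They were named as the 2 largest calls per direction and do not describe the list as a whole. Akt1s1, for example, was also called higher (log2 fold change 0.16, SE 0.04, limma adjusted p = 0.016). RNA levels give no measure of mTOR activity.

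**Figure D5:**
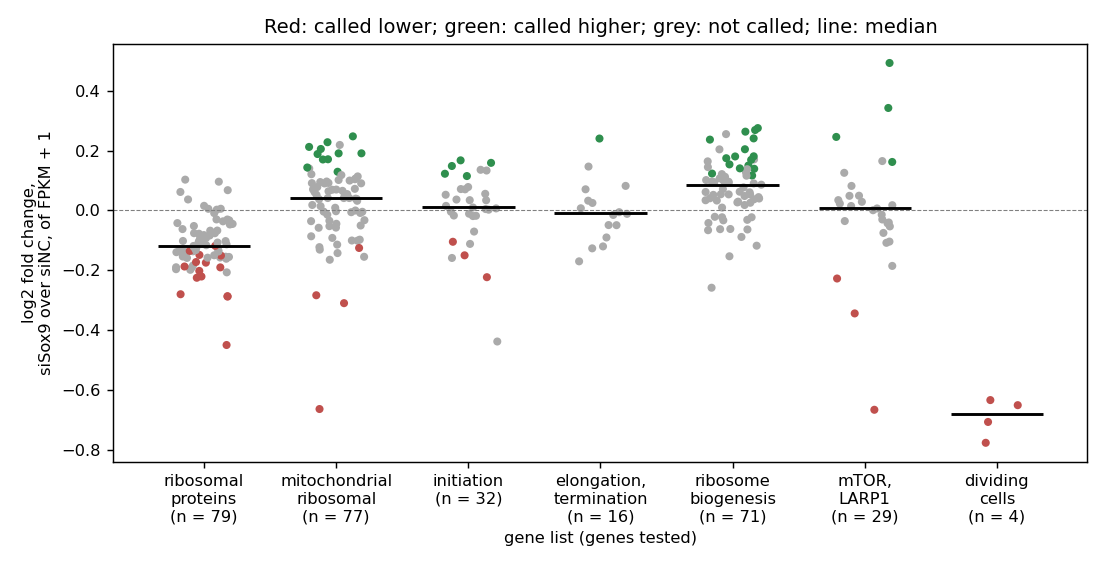
Log2 fold change of FPKM + 1, siSox9 over siNC (y axis), for the tested genes of 7 lists (x axis); each point is a gene, colours give the call and lines the medians. The 79 ribosomal protein genes have 15 calls, all lower, whereas 16 of 71 biogenesis genes are called higher and all 4 markers of dividing cells lower.

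Cell division markers moved in the same comparison and by much more than the ribosomal protein genes. Mki67 had 6.61, 7.06 and 7.03 FPKM with siSox9 and 12.9, 12.0 and 12.8 FPKM with siNC (log2 fold change -0.78, SE 0.04, limma adjusted p = 8.3e-05), and Top2a had a log2 fold change of -0.71. All 4 markers of dividing cells were called lower here and in each of the 16 alternatives, and their summed level was 24.7 to 27.6 FPKM in siSox9 and 43.4 to 45.2 FPKM in siNC libraries. In siNC replicate 1 this sum was 44.5 FPKM, so that library did not stand apart in division markers. In bulk RNA, fewer dividing cells and less RNA per cell cannot be told apart, and the part of cell division in the ribosomal protein values was not tested. Among 6 epithelial markers, Cdh16 was called higher (log2 fold change 0.36) and the others were not called. Of 4 tested macrophage markers, Lyz2 was called higher (log2 fold change 0.21).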

How the data were processed

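RNA-Seq libraries of mouse primary renal TECs were analysed from the gene table that the authors deposited, which gives FPKM per gene and library with gene name, biotype and position. The submitters' processing notes name HISAT2 2.1.0, Bowtie2 2.2.3, TopHat2 and mm9, whereas the listed positions match GENCODE M21 (GRCm38) for 93.3% of matched genes and 73 of 82 members, and GRCm38 was used here. How reads with several positions or overlapping genes were counted, and whether strand was used, is not given in the sources used here. Table columns named for a second siRNA beside the control were taken as siSox9, the single non-control siRNA that the labels name. Total depth, inferred from the FPKM scaling, was 23893197 to 25725743 reads per library. The whole reads recovered summed to 20796857 to 22377943 per library.

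From these values, whole reads were recovered with M21 exon lengths (within 0.02 reads; 71 of 82 members whole in all 6 libraries). A tested member with whole reads had 142 to 53103 reads in a library, with a median of 8254. Differences were tested with limma 3.58.1 (R 4.3.3; lmFit, eBayes with trend) after log2(FPKM + 1) transformation. Genes averaging under 1 FPKM were left out, which kept 79 of 82 members. No block was used, since the study's statistics name an unpaired test. Fold changes on this scale understate those of low genes. The script was checked on simulated data. Paralog ratios were tested by exact permutation. Shared 50-base stretches came from M21 transcripts, and start windows from RefSeq (GRCm38.p6).

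The members and gene lists were chosen with earlier results of these data known. Genes were named by rule: the 8 called members with the largest rise and the 8 with the largest fall among those with separate groups, the 8 paralog pairs, the stalk, 5S, Rps6, Rpsa, Rps27a, Rack1 and Fau genes, the 3 highest and 3 lowest members, the 2 largest calls per direction in each companion list, Sox9 and Myc. Alternatives were another pseudocount, other minimum values, TPM, median centring, quantile normalization, a replicate block, no moderation and leaving out each library. Centring by exon length, voom on recovered reads and leaving Gm23935 out of the total were chosen after seeing the data. No list was tested as a set. A further item is not reported here.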

Additional observations from a re-analysis of the deposited data

How the results depend on the processing

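The count of ribosomal protein genes called higher was 0 under each of the 16 alternatives. Their median log2 fold change was -0.12. Over the alternatives it ran from -0.19 (without siNC replicate 1) to -0.07 (without siNC replicate 2). The count called lower, 15, depended on the processing. It was 4 with no filter on low values (4.88% of members, against 5.63% of all genes), 4 with no moderation (5.06%, against 13.2%), 9 with median-centred values (11.4%, against 14.7%), 25 with quantile-normalized values (31.6%, against 1797 of 12009 genes) and 28 of 68 with voom on recovered reads (41.2%, against 20.8%). Leaving out 1 library gave 4 to 50. The cause was not tested; leaving out a library and testing 28122 genes with no filter also reduce what the test can call. With a minimum of 5 FPKM, 21 were called (27.3%, against 18.4%), with a pseudocount of 0.1 or with TPM 14 (17.7%, against 17.6% and 11.2%), and after centring by exon length 11. The replicate block gave 14 (17.7%, against 15.7%), of which 12 were among the 15. Correlations of same-numbered deviations over all genes tested were 0.06, -0.05 and 0.01. They cannot show whether same-numbered libraries shared a mouse or culture, since each deviation is taken from a mean of only 3 libraries. The difference in the summed share, -0.308 percentage points, kept its sign without each library and without Gm23935. Of the 15 called members, none reversed. In all, 148 of their values kept the call and 88 kept the direction without it. Over all genes, 1532 were called higher and 2118 lower, compared with 1959 and 1765 after median centring, 1231 and 1342 with TPM, 1328 and 1376 with a minimum of 5 FPKM, and 944 and 1480 without siSox9 replicate 2.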
